A study of Mus musculus with 2 samples.

Results

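The 10 genes described here report on the unfolded protein response and the integrated stress response in dissociated mouse pituitary cells. They are Hspa5, Hsp90b1, Dnajb9, Herpud1, Atf6, Xbp1, Atf4, Atf3, Ddit3 and Trib3. They were chosen by name, and each was found once among the 47069 genes of the count table by matching its Ensembl identifier to the mouse annotation. Levels are given as CPM, which are counts scaled to a library total of 1000000. All 10 passed the filter on low values, a mean of 1 CPM, and were among the 16504 genes compared. Poly(A) RNA was sequenced in bulk from 2 samples of primary cells from female C57BL/6 mice aged 10 to 12 weeks that cycled at random. For each sample 5 glands were pooled and digested with collagenase and pancreatine, which gave 500000 to 700000 cells. The cells of one sample were then kept in RNA-Best, the cell preservation buffer that the study introduced. Those of the other were kept in RNAlater, an established RNA stabilizer. The comparison sets transcript levels in the RNA-Best sample against those in the RNAlater sample. Whether the 2 samples came from separate pools of glands is not stated in the sources used here. Stabilizer and pool therefore cannot be told apart in the ratios below. Each stabilizer had 1 library, so the differences below rest on no replicates and carry no test. Cells of both samples passed through the same dissociation procedure, and undissociated glands were not analysed here. All intervals are 95% intervals that cover counting error only, and PCR copies are not independent molecules.

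Secreted hormones fold in the endoplasmic reticulum (ER), where unfolded protein is sensed by IRE1 (gene Ern1), PERK (Eif2ak3) and ATF6. IRE1 cuts Xbp1 mRNA so that it can be rejoined into the form that encodes the active factor XBP1, and ATF6 is itself cut in the Golgi to release a factor. PERK and 3 related kinases phosphorylate the initiation factor eIF2, which slows translation in general and favours that of ATF4. Endocrine cells of the pituitary carry a heavy secretory load and express ER chaperones at high levels without added stress.

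The sequence elements that link these genes to the sensors are shown first. The ER stress response element (ERSE), at which ATF6 acts together with the CCAAT-binding factor NF-Y, reads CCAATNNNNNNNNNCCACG. It was searched on both strands in RefSeq windows (build GRCm38.p6) running from 250 bases before to 50 bases after each gene's RefSeq start. Windows were found for 9 of the 10 genes, all but Atf6. The ERSE lay in those of Hspa5 and Hsp90b1, and in 39 of all 32851 windows (0.119%). A related element, ERSE-II, reads ATTGGNCCACG. It lay in the window of Herpud1 and in 12 of all windows (0.0365%). In the stretches below, printed 5′ to 3′ on the strand of the gene, capitals mark the matches to the searched elements.

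Hspa5, chr2:34772020-34772048, + strand: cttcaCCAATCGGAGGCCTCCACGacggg
Hsp90b1, chr10:86705528-86705661, - strand: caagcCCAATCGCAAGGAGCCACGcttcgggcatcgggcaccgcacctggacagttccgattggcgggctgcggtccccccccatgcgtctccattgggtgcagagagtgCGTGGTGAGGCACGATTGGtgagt
Herpud1, chr8:94386312-94386392, + strand: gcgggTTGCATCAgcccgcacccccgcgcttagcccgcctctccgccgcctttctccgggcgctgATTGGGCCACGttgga
Atf3, chr1:191183431-191183448, - strand: cgcacTTGCATCAccaag

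The stretch of Hspa5 lies within the first exon of the gene as GENCODE annotates it. That of Atf3 also lies inside its annotated gene, far from the outermost annotated start at chr1:191218039. Hsp90b1 carried 2 ERSE matches, one on each strand. The first capitals of Herpud1 and those of Atf3 are the core TGATGNAA of the C/EBP-ATF element, read on the opposite strand, at which ATF4 acts with C/EBP proteins. That core lay in the windows of Herpud1, Atf3 and Trib3, and in 3.97% of all windows. The palindromic CRE, TGACGTCA, was in none of the 9 windows and in 1.79% of all windows. The UPRE core TGACGTGG, at which XBP1 can act, was likewise in none of the 9 and in 0.676% of all. A match describes these letters in this window and does not show that a factor was bound.

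The region that IRE1 removes from Xbp1 mRNA is also shown, because the deposited counts cannot tell the unspliced from the spliced form. It was located with its length of 26 bases set beforehand. The coding sequence of the longest annotated transcript holds 3 sites of the form CNGCAGC, and 1 pair of them lies that far apart. The removed region lies within exon 4 of 5, at chr11:5524282-5524307 (GRCm38, + strand), and is shown in capitals with its flanks.

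Xbp1: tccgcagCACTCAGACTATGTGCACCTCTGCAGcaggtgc

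The RNA-Best library held 53915047 counts and the RNAlater library 44917492. The tissue label was checked against hormone genes: all 7 (Prl, Gh, Pomc, Cga, Lhb, Fshb and Tshb) were detected in both libraries, and their summed level was 307051 CPM in RNA-Best against 239085 in RNAlater. Scaling by total counts left the median gene at a log2 ratio of RNA-Best to RNAlater of -0.18. The median moved up by 0.16 with edgeR's TMM factors, by 0.17 with DESeq2 size factors and by 0.12 when Prl and Gh were left out of the total. For this reason the median gene is used as a further reference for the ratios. These scalings moved the ratios up, so a ratio above 0 by total counts could not turn negative under them. Markers of other cells also differed between the libraries. All 5 endothelial markers were lower in RNA-Best, with a summed level of 313 against 618 CPM, and all 4 posterior lobe markers were lower (42.0 against 88.5 CPM). The 5 pericyte and fibroblast markers (480 against 601 CPM) and the 4 stem and folliculostellate markers (54.0 against 66.9 CPM) were lower as well. By CPM, 67.0% of all genes were lower too. Relative to the median of all genes, every endothelial and posterior lobe marker was still lower. In each of the other 2 lists 1 marker was not (Col1a2 at 0.00 and Fxyd1 at 0.10). Col1a2 held 376 of the 480 CPM. The sum of the 4 erythroid markers was higher (3184 against 1119 CPM). Macrophage markers, 2 of them higher and 3 lower (143 against 135 CPM), and plasma and B cell markers (36.7 against 38.3 CPM) differed less in sum. No marker was at 0 in either library. In bulk samples, fewer cells of a type and less RNA per cell cannot be told apart, and the part of these markers in the results below was not tested.

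Together the 10 genes took 0.605% of all counts in RNA-Best (0.603% to 0.607%, Clopper-Pearson) against 0.655% in RNAlater (0.653% to 0.658%). With Prl and Gh left out of the total, the order turned, to 0.860% (0.857% to 0.863%) and 0.853% (0.850% to 0.856%). Hspa5 alone held 47.2% of the 10 genes' counts in RNA-Best and 47.1% in RNAlater. Hspa5, Hsp90b1 and Atf3 together held 78.4% and 80.1%. The 10 genes thus took a small part of the counts in either library. By mean CPM, Hspa5, Atf3, Hsp90b1 and Atf4 each exceeded at least 99.2% of the genes compared, and Trib3 exceeded 26.3%. A single chaperone made up nearly as many of the 10 genes' reads as the other 9 together.

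To compare levels between genes, CPM were divided by the length of the longest annotated transcript in kb. On this scale Hspa5 stood highest, at 779 CPM per kb in RNA-Best and 840 CPM per kb in RNAlater, and Trib3 lowest, at 2.82 and 3.02. Hspa5 thus exceeded Trib3 by 276-fold and 278-fold on this length. With the median length of each gene's transcripts, which is far shorter for Hspa5, the levels in RNA-Best were 4419 CPM per kb for Hspa5, 811 for Hsp90b1 and 8.94 for Trib3. Between them lay, in the same order in both libraries, Atf3, Hsp90b1, Atf4, Xbp1, Herpud1, Dnajb9, Ddit3 and Atf6. Herpud1 (91.9 CPM per kb in RNA-Best and 99.1 in RNAlater) and Dnajb9 (85.8 and 78.6) were the closest neighbours in RNA-Best, and Dnajb9 and Ddit3 (70.6) in RNAlater. The order of Herpud1 and Dnajb9 turned in RNA-Best when the union of annotated exons was used as the length (76.9 for Herpud1 and 82.8 for Dnajb9). With the median transcript length, Hsp90b1 passed Atf3 in both libraries and Xbp1 passed Atf4 in RNA-Best. The other places in the order held under each of these lengths. The counting intervals of neighbours did not overlap in either library, but with 1 library each the spread between samples is unknown.

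**Figure D1:**
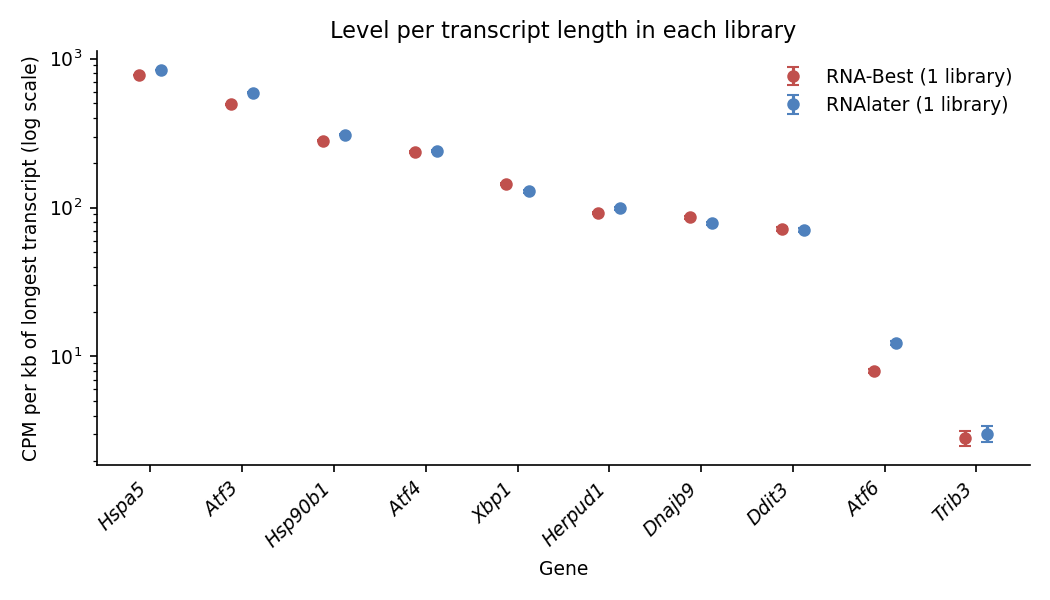
Level of each of the 10 genes in CPM per kb of its longest annotated transcript (vertical axis, log scale) in the RNA-Best library (red) and the RNAlater library (blue). Bars are exact Poisson 95% intervals of the count, and the order runs from Hspa5 at 840 to Trib3 at 3.02 CPM per kb in RNAlater.

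None of the 10 genes differed 2-fold between the libraries. Over all genes compared, 4.99% were at least 2-fold lower in RNA-Best and 0.273% at least 2-fold higher. At 1.5-fold, 1 of the 10 (Atf6) was lower and none was higher, where 18.8% of all genes were lower and 3.22% higher. By CPM, 7 of the 10 were lower in RNA-Best, near the 67.0% of all genes that were. The counting interval lay wholly below 0 for 5 genes (Hspa5, Hsp90b1, Herpud1, Atf6 and Atf3) and wholly above 0 for Xbp1 and Dnajb9. Among all genes, 51.2% and 20.2% did so. The median log2 ratio of the 10 was -0.10. Relative to the median of all genes it was 0.08, with 8 of the 10 above that median and Atf6 and Atf3 below it. With TMM or DESeq2 size factors, 8 of the 10 were higher in RNA-Best and 2 lower, where 51.4% and 50.4% of all genes were lower.

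The ER chaperones are described first, each member with its Ensembl identifier and its GRCm38 position. Hspa5 (ENSMUSG00000026864.13, chr2:34771970-34777547, + strand) encodes BiP, the ER chaperone of the HSP70 family that also holds the sensors inactive. It had 2859 CPM in RNA-Best against 3085 in RNAlater, more than 99.9% of the genes compared. Its level was thus slightly lower in RNA-Best by CPM, with a log2 ratio of -0.11 (interval -0.12 to -0.10), but 0.07 above the median of all genes, and it turned positive under the other 3 scalings. Hsp90b1 (ENSMUSG00000020048.13, chr10:86690209-86705509, - strand) encodes GRP94, the HSP90 chaperone of the ER. It had 908 CPM in RNA-Best against 992 in RNAlater. Its log2 ratio of -0.13 (-0.15 to -0.11) was 0.05 above the median of all genes, and it turned positive with TMM and DESeq2 size factors. The log2 ratios of these ERSE-bearing chaperones differed by 0.02 (interval -0.00 to 0.04), which counting error alone covers. Per kb, Hspa5 exceeded Hsp90b1 by 2.76-fold in RNA-Best and 2.73-fold in RNAlater. Exons of other annotated genes overlap 15.7% of the exonic bases of Hsp90b1, so its level is less certain.

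Dnajb9 (ENSMUSG00000014905.3, chr12:44205559-44210326, - strand) encodes the ER cochaperone ERdj4 and is a known target of XBP1. It had 211 CPM in RNA-Best against 193 in RNAlater. It was higher in RNA-Best by CPM, with a log2 ratio of 0.13 (0.09 to 0.17), which the other 3 scalings raised further. Herpud1 (ENSMUSG00000031770.15, chr8:94386438-94395377, + strand) encodes an ER membrane protein that takes part in ER-associated degradation, the removal of misfolded protein to the proteasome. It had 179 CPM in RNA-Best against 193 in RNAlater. Its log2 ratio of -0.11 (-0.15 to -0.07) lay 0.07 above the median of all genes and turned positive under the other 3 scalings. The log2 ratio of Dnajb9 thus exceeded that of Herpud1 by 0.23 (0.18 to 0.29), more than counting error but without a replicate check.

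Of the sensors' own factors, Atf6 and Xbp1 lay at opposite ends of the 10 genes. Xbp1 (ENSMUSG00000020484.18, chr11:5520659-5525893, + strand) had 306 CPM in RNA-Best against 273 in RNAlater, which gave a log2 ratio of 0.16 (0.13 to 0.20). The other 3 scalings raised this ratio further. Atf6 (ENSMUSG00000026663.6, chr1:170704674-170867771, - strand) had 57.8 CPM in RNA-Best against 89.4 in RNAlater. Its log2 ratio of -0.62 (-0.70 to -0.56) was negative under all 4 scalings and lay above those of 16.8% of the genes compared. Their log2 ratios differed by 0.79 (0.72 to 0.87). Per kb, Xbp1 mRNA was thus 18.0 times Atf6 mRNA in RNA-Best and 10.4 times in RNAlater. The longest Atf6 transcript has 7246 bases, and that of Xbp1 2129.

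**Figure D2:**
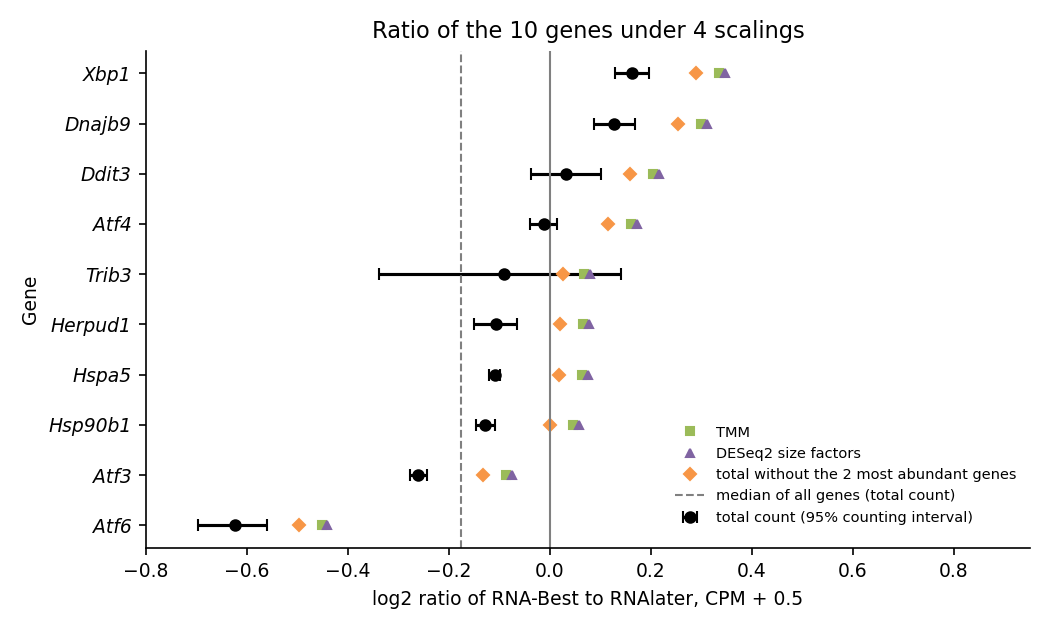
Log2 ratio of RNA-Best to RNAlater (horizontal axis, CPM plus 0.5) for each of the 10 genes by total counts (black, with 95% counting intervals) and under 3 other scalings (coloured marks). Atf6 and Atf3 stay below 0 under all 4 scalings. Xbp1, Dnajb9 and Ddit3 lie above 0 by total counts, and the 3 other scalings move the ratios further up. The dashed line marks the median of all genes at -0.18.

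Atf4, Atf3, Ddit3 and Trib3 belong to the integrated stress response. Atf4 (ENSMUSG00000042406.7, chr15:80255184-80257541, + strand), the factor whose translation rises when eIF2 is phosphorylated, had 477 CPM in RNA-Best against 482 in RNAlater. Its log2 ratio of -0.01 (-0.04 to 0.01) did not differ from 0 beyond counting error, and it was 0.16 above the median of all genes. Ddit3 (ENSMUSG00000025408.15, chr10:127290774-127296288, + strand) encodes CHOP, a factor downstream of ATF4 that promotes cell death under lasting stress. It had 69.9 CPM in RNA-Best against 68.4 in RNAlater, for a log2 ratio of 0.03 (-0.04 to 0.10). The difference in log2 ratio between Atf4 and Ddit3 was -0.04 (-0.12 to 0.03). Exons of Mars and Gm4189, both on the other strand, overlap 4.73% of the exonic bases of Ddit3, and the strand setting of the count is not given in the sources used here.

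Trib3 (ENSMUSG00000032715.9, chr2:152337422-152344032, - strand) encodes a pseudokinase induced by ATF4 and CHOP. It was the least abundant of the 10, with 308 counts in RNA-Best and 275 in RNAlater, or 5.71 and 6.12 CPM. Its log2 ratio of -0.09 had the widest interval (-0.34 to 0.14), and a difference was not detectable at this depth. Per kb, Ddit3 exceeded Trib3 by 25.6-fold in RNA-Best and 23.4-fold in RNAlater. From Atf4 through Ddit3 to Trib3 the mRNAs thus fell stepwise in level in both libraries, while Atf3 stood above Atf4. Per kb, Atf4 stood 3.28-fold and 3.38-fold above Ddit3. With the union of exons as the length, these ratios in RNA-Best were 15.2-fold for Ddit3 over Trib3 and 4.96-fold for Atf4 over Ddit3.

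Atf3 (ENSMUSG00000026628.13, chr1:191170296-191218039, - strand) encodes a stress-induced repressor that is also an early response gene. It came next after Hspa5 per kb of the longest transcript, and had 977 CPM in RNA-Best against 1171 in RNAlater. Its log2 ratio of -0.26 (-0.28 to -0.24) was negative under all 4 scalings and stood at -0.09 against the median of all genes. The log2 ratio of Atf3 minus that of Atf4 was -0.25 (-0.28 to -0.22). Per kb of the longest transcript Atf3 stood 2.08-fold above Atf4 in RNA-Best and 2.47-fold above it in RNAlater. Atf3 is 1 of the 5 members whose counts held fractions of reads, with Hspa5, Hsp90b1, Dnajb9 and Herpud1.

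Transcript length was compared with the ratio because long transcripts as a class were lower in RNA-Best. The median log2 ratio of all genes compared fell from 0.29 for transcripts of up to 1 kb through 0.07 (1-2 kb), -0.09 (2-3 kb), -0.22 (3-4 kb) and -0.40 (4-6 kb) to -0.65 (6-10 kb) and -0.90 (over 10 kb). Against its own length class Atf6 was no longer low but stood 0.03 above the median. Xbp1 remained 0.25 and Dnajb9 0.22 above theirs, and Hspa5 (0.11) and Hsp90b1 (0.10) were above as well. Relative to its class Atf3 stood at -0.33, the lowest of the 10. Ddit3, the shortest at 969 bases, stood at -0.26 and Herpud1 at -0.18. Atf4 stood 0.08 above its class, and Trib3 was level with it (-0.00). In all, 6 of the 10 lay above and 4 below the median of their class. Herpud1 (1952 bases) and Atf3 (1984) lie just under the limit of 2 kb, and Atf4 (2019) and Trib3 (2026) just over it. Ddit3 lies just under the limit of 1 kb. The class medians differ across these limits, so the values of these genes and the count depend on where the limits were set. Lengths come from the longest annotated transcript, and the transcripts expressed can be shorter.

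**Figure D3:**
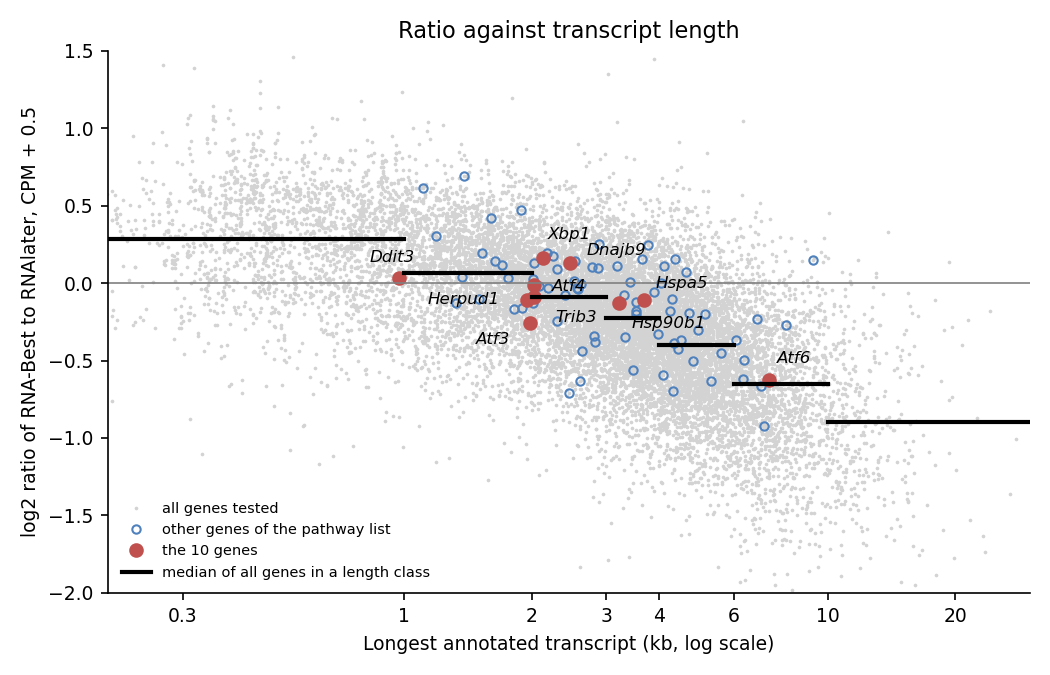
Log2 ratio of RNA-Best to RNAlater (vertical axis, CPM plus 0.5) against the longest annotated transcript in kb (horizontal axis, log scale) for all genes compared (grey), the wider pathway list (open blue) and the 10 genes (red). Black lines mark the median of each length class, from 0.29 to -0.90, 126 genes lie outside the axes, and Atf6 sits near the line of its class while Atf3 lies below its own.

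A wider list of 84 genes of both pathways, the 10 included, was set out by role. Eif2ak3 was placed both among the sensors and among the eIF2 regulators, and is counted in each. All 84 passed the filter on low values. By CPM 32 were higher in RNA-Best and 52 lower, where 67.0% of all genes were lower, and the median log2 ratio was -0.10, or 0.08 relative to all genes. None passed 2-fold in either direction. Past 1.5-fold, 2 were higher (Cnpy2 and Sdf2l1) and 9 lower, where 3.22% and 18.8% of all genes were. The direction of the list followed the scaling, with 52 higher and 32 lower under TMM, where 51.4% of all genes were lower. Spearman's rho of the log2 ratio with transcript length was -0.545 over the 84 genes and -0.638 over all genes compared, as a description across genes of the same libraries.

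Of the 22 ER chaperones and folding enzymes, 12 were higher in RNA-Best and 10 lower by CPM, where 67.0% of all genes were lower. Of the 22, 18 lay above the median of all genes. The median log2 ratio was 0.01, and against the length classes 20 of the 22 lay above. Cnpy2, which encodes an ER protein of the saposin-like family, was highest, with 286 CPM in RNA-Best against 177 in RNAlater and a log2 ratio of 0.69 (0.65 to 0.73). Ero1l, an oxidase that drives disulfide formation, was lowest, with 24.9 and 33.6 CPM and -0.43 (-0.54 to -0.33). Against their length classes Ero1l stood at -0.03 and Cnpy2 at 0.62. Hspa5 had the highest CPM of the group, and the spread of the others around it was narrow: all but Cnpy2, Sdf2l1 and Ero1l lay between -0.30 and 0.19.

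Of the 10 sensors and their processing factors, 8 were lower and 2 (Xbp1 and Creb3) higher by CPM, where 67.0% of all genes were lower. The group median by CPM was -0.43. Under each of the other 3 scalings 7 were lower, where 50.4% to 55.5% of all genes were. The group median was then -0.26 with TMM, -0.25 with DESeq2 size factors and -0.31 without Prl and Gh. Creb3, an ER-membrane factor activated by cleavage like ATF6, had 113 CPM in RNA-Best against 81.2 in RNAlater, for a log2 ratio of 0.47 (0.41 to 0.53). Exons of Gba2 and Tln1 overlap 20.8% of its exonic bases. Creb3l2, of the same family, was lowest, with 112 and 212 CPM and -0.92 (-0.97 to -0.88). Ern1 had 91.5 and 145 CPM, with a ratio on the log2 scale of -0.66 (-0.72 to -0.61), and Eif2ak3 had 54.0 and 69.8 CPM and -0.37 (-0.44 to -0.30). Atf6b, the paralog of Atf6 with a longest transcript of 2566 bases, had 47.9 and 49.2 CPM, with a ratio on the log2 scale of -0.04 (-0.12 to 0.05). Atf6 and Atf6b thus shifted unequally, with a difference of 0.59 (0.49 to 0.70). The group's median transcript was 4.66 kb, against 3.09 kb for all genes. Against their length classes 6 of the 10 lay above and 4 below, and the members were spread widely. Atf6, Atf6b, Ern1 and Eif2ak3 lay between -0.01 and 0.05, while Mbtps1 stood at 0.42, Creb3 at 0.40 and Xbp1 at 0.25. Creb3l1 stood at -0.54, Creb3l2 at -0.27 and Mbtps2 at -0.10.

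For ER-associated degradation, 10 of 15 genes were lower and 5 higher by CPM, near the 67.0% of all genes that were lower. Of the 15, 8 lay above the median of all genes. Selenos, which encodes a selenoprotein of the retrotranslocation complex, was highest at 127 CPM in RNA-Best against 103 in RNAlater (log2 ratio 0.30, interval 0.25 to 0.36). Sel1l, the adaptor of the ubiquitin ligase Syvn1, was lowest at 51.1 and 78.7 CPM (-0.62, -0.70 to -0.55). Against their length classes Sel1l stood at 0.03 and Selenos at 0.24. Os9, a lectin that recognises misfolded glycoproteins, had the highest CPM of the group, at 236 and 320 CPM (-0.44, -0.47 to -0.41). Herpud1 thus lay near the group median of -0.13.

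In the group of eIF2 and its regulators, 8 of 14 were lower and 6 higher by CPM, where 67.0% of all genes were lower. All 4 eIF2 kinases were lower under all 4 scalings, under which 50.4% to 67.0% of all genes were lower. Their median log2 ratio by CPM was -0.51, and all 4 have transcripts over 4 kb. Against the length classes 2 of the 4 kinases lay above and 2 below. Eif2ak2, which encodes the kinase PKR that senses double-stranded RNA, was lowest, at 18.3 CPM in RNA-Best against 29.98 in RNAlater (-0.69, -0.83 to -0.59). All 3 subunits of eIF2 itself were higher under all 4 scalings. Their median stood 0.38 above the length classes. The 5 subunits of eIF2B, the exchange factor that phosphorylated eIF2 blocks, had transcripts under 4 kb. By CPM 3 of these 5 were higher and 2 lower, and all 5 lay above the median of all genes. Eif2b2 was highest, at 37.3 and 27.7 CPM (0.42, 0.33 to 0.53). Ppp1r15a, which encodes the stress-induced subunit GADD34 that directs eIF2 dephosphorylation, had the highest CPM of the group, at 586 and 741 (-0.34, -0.36 to -0.32). Per kb it stood 16.7-fold above the constitutive Ppp1r15b in RNA-Best and 15.4-fold in RNAlater.

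Among the 11 stress-induced factors and regulators, 8 were lower and 3 higher by CPM, where 67.0% of all genes were lower. Of the 11, 7 lay above the median of all genes. This group was the only role group of the 6 with more members below than above their length classes, at 8 against 3. Atf3, Atf4, Ddit3 and Trib3 lie near class limits, so this count depends in part on where the limits were set. Chac1, which degrades glutathione, was highest at 11.1 CPM in RNA-Best against 9.95 in RNAlater (0.14, -0.03 to 0.33). Of those with a mean of at least 10 CPM, Sesn2, a sestrin that restrains mTORC1, was lowest at 19.0 and 28.3 CPM (-0.56, -0.70 to -0.45). Nupr1, a small chromatin regulator below that level, had 6.25 and 10.6 CPM (-0.71, -0.96 to -0.55). Atf4 and Ddit3 were thus near the upper end of the group and Atf3 toward the lower.

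Of 13 ATF4 targets, 9 were lower and 4 higher by CPM, where 67.0% of all genes were lower, and 8 lay above the median of all genes. Most of them serve amino acid transport or synthesis and the one-carbon pathway. Vldlr, a lipoprotein receptor, and Stc2, a secreted glycoprotein, do not, and both were among the 9 lower. Slc7a11, the cystine transporter, was highest among those with a mean of at least 10 CPM, at 23.0 CPM in RNA-Best against 20.7 in RNAlater (0.15, 0.03 to 0.28). Its partner subunit Slc3a2 had the lowest ratio and the highest CPM, at 163 and 212 CPM (-0.38, -0.42 to -0.34). Asns, asparagine synthetase, had 60.8 and 59.8 CPM (0.02, -0.05 to 0.10). Its ratio lay near that of Atf4 (-0.01), but the 13 targets ran from -0.38 to 0.25.

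**Figure D4:**
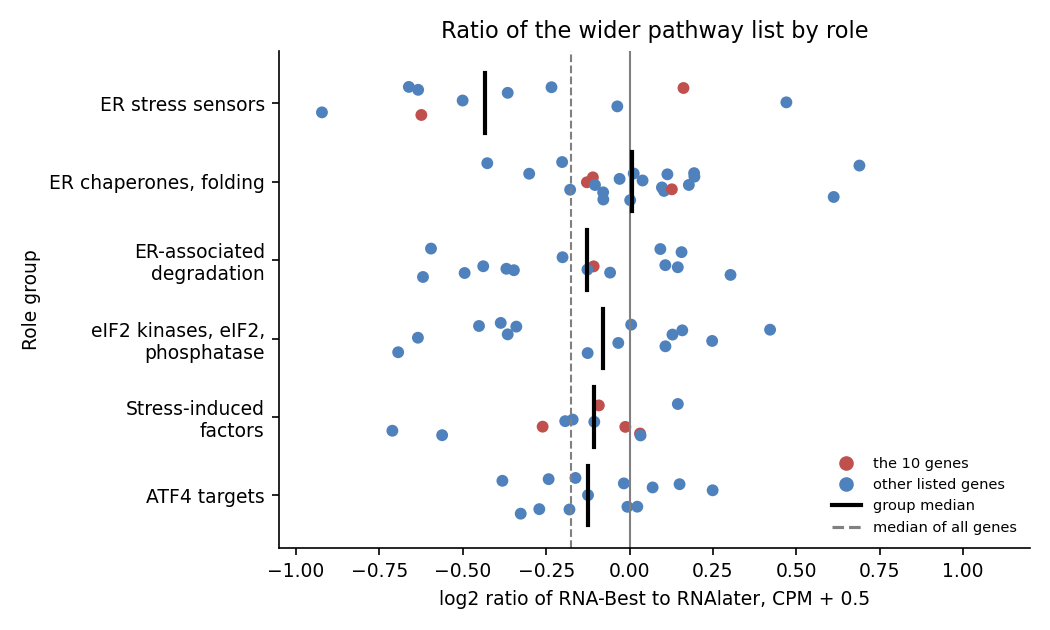
Log2 ratio of RNA-Best to RNAlater (horizontal axis, CPM plus 0.5) for the 84 listed genes in 6 role groups, each point 1 gene, with the 10 genes in red. Eif2ak3 is drawn in both of its groups. Black bars are group medians, from -0.43 for the sensors to 0.01 for the chaperones, and the dashed line is the median of all genes at -0.18.

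The promoter elements were also read against the wider list, in which 71 genes had a window. The ERSE lay in 9 of the 71, all but 2 of them chaperones or folding enzymes (Hspa5, Hsp90b1, Calr, Canx, Dnajc3, Pdia6 and Creld2). The exceptions were Derl3 and Syvn1 of ER-associated degradation. The list was drawn up from known targets, so this share is no independent finding. The log2 ratios of the 9 ran from -0.60 (Syvn1) to 0.19 (Pdia6), with a median of -0.11 against -0.08 for the 62 without the element. The core of the C/EBP-ATF element lay in 11 genes, whose log2 ratios ran from -0.71 (Nupr1) to 0.69 (Cnpy2). Their median was 0.02, against -0.10 for the 60 without it, a difference that was not tested. Over all 84 genes the log2 ratios ran from -0.92 to 0.69. Genes with the C/EBP-ATF core thus covered much of that range, and those with the ERSE a narrower part of it.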

How the data were processed

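The 2 libraries of dissociated pituitary cells were grouped by the stabilizer in their labels, 1 per group. The deposited table holds estimated counts per Ensembl gene that the authors did not normalize. Of the values above 0, 35.4% in RNA-Best and 34.9% in RNAlater were not whole, so some reads were divided between features, under an option that was not stated. The submitters' processing notes name STAR 2.5.1b, featureCounts 1.5.0-p1 and mm10. The study's methods state an annotation release for its cell line libraries, and the one used for these is not given in the sources used here. Every line of the table was a gene.

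Symbols, positions and transcript lengths came from GENCODE M21 on GRCm38, which matched 98.9% of the identifiers (version suffix ignored), and promoter windows from RefSeq. Counts were scaled by the column total to CPM. Log2 ratios used CPM plus 0.5 for genes whose mean reached 1 CPM, which understates the ratio of low genes. Without replicates limma's voom, the study's method for its replicated samples, could not be fitted. Counts were rounded, with no pseudocount, for conditional binomial (exact) intervals of each ratio, Poisson intervals of levels, Clopper-Pearson intervals of shares, and the scaling factors of edgeR 4.0.16 and DESeq2 1.42.0 in R 4.3.3. Intervals of a difference of 2 log2 ratios used the normal approximation for log counts. Python 3.11.15, numpy 2.4.6, scipy 1.17.1, pandas 2.3.3 and matplotlib 3.10.9 were used for the rest. The ratio and interval steps were tested on simulated data.

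The 10 genes and the wider lists were chosen with earlier results of these data known, so no list is independent support. Named by rule were the 10 genes, the genes used to check the tissue, and, in each role group, the most abundant gene, any gene past 2-fold and the highest and lowest ratio at a mean of at least 10 CPM. Ern1, Eif2ak3, Atf6b, Ppp1r15b, Sdf2l1, Nupr1, Asns, Mbtps1, Mbtps2, Creb3l1, Vldlr, Stc2 and the element-bearing genes are not covered by it and were picked with their values in view. Alternatives covered scaling, pseudocount, filters, whole counts, length definitions and the reference of the ratio.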

Additional observations from a re-analysis of the deposited data

How the results depend on the processing

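No paired analysis was possible because each stabilizer had 1 library, and no library could be left out for the same reason. The direction of small ratios followed the scaling. With TMM the log2 ratio became 0.063 for Hspa5, 0.045 for Hsp90b1 and 0.065 for Herpud1, with DESeq2 size factors 0.075, 0.057 and 0.077, and with Prl and Gh left out of the total 0.018 for Hspa5 and 0.019 for Herpud1. Relative to all genes they were 0.065, 0.047 and 0.068, and relative to the length class 0.11 for Hspa5, 0.096 for Hsp90b1 and 0.027 for Atf6. The median of the 10 genes was 0.066 with TMM, 0.077 with DESeq2, 0.022 without Prl and Gh, 0.075 relative to all genes, 0.052 relative to the length class and -0.013 over genes with whole counts. Of the 10, 8 were higher and 2 lower with TMM, DESeq2 or relative to all genes, 7 and 3 without Prl and Gh, and 6 and 4 relative to the length class. With whole counts, 3 of 5 were lower. For the 84 genes, the median was 0.068 with TMM, 0.080 with DESeq2, 0.025 without Prl and Gh, 0.077 relative to all genes and 0.081 relative to the length class. Of them 52 were higher and 32 lower with TMM or relative to all genes, 54 and 30 with DESeq2, 56 and 28 relative to the length class, and 21 and 28 with whole counts.

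Over all genes, 45 were at least 2-fold higher and 824 lower in RNA-Best. These were 110 and 438 with TMM, 118 and 423 with DESeq2, 83 and 536 without Prl and Gh, 22 and 333 with a pseudocount of 5 CPM, and 531 and 3096 at 1.5-fold. The share of the 10 genes without Prl and Gh was 0.860% in RNA-Best and 0.853% in RNAlater. Atf6 and Atf3 stayed negative under all 4 scalings. Xbp1, Dnajb9 and Ddit3 were positive by total counts and could not turn, because the other 3 scalings moved the ratios up. The counting interval of Ddit3 (-0.04 to 0.10) included 0. Depth limited Trib3 most.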
